A study of Mus musculus with 32 samples.

Results

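The 16 primary mouse melanomas with intact Cdh1, named Ecad, were ranked by the level of Cdh1 RNA, and the classes were chosen by that value alone: the 8 highest (Cdh1-high) were compared with the 8 lowest (Cdh1-low). They are 16 of the 32 tumours of the series. The other 16, named ΔEcad, were not ranked and serve here as tumours in which the ranking had no part. The ranking used Cdh1 itself, so Cdh1 levels by class are a description. No test of a Cdh1 difference between the 2 classes is reported.

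Genotypes are given as in the labels. Ecad tumours came from Tyr::NrasQ61K;Cdkn2a-/+;°/°;Cdh1F/F mice, 8 males and 8 females. ΔEcad tumours are labelled Tyr::NrasQ61K;Cdkn2a-/+;Tyr::NRAS/°;Cdh1F/F, also 8 males and 8 females, and in the study's methods the third element of that genotype is a Cre recombinase driven by the tyrosinase promoter. All animals therefore carried oncogenic Nras in melanocytes, 1 lost copy of the tumour suppressor Cdkn2a and a floxed Cdh1. Recombination is meant to disrupt Cdh1 in ΔEcad melanocytes and to leave it intact elsewhere. Counts per gene cannot tell RNA of a disrupted Cdh1 from RNA of an intact one. Messenger RNA was sequenced from primary tumours, with no step described that separates melanocytes from other cells, and the labels give no age.

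Cdh1 encodes E-cadherin, the adhesion protein that joins neighbouring epithelial cells through calcium-dependent contacts. Inside the cell it binds p120 catenin (Ctnnd1), β-catenin (Ctnnb1) and, through β-catenin, α-catenin and actin. In skin, E-cadherin holds keratinocytes together and anchors melanocytes to them. Keratin 5 (Krt5) and keratin 14 (Krt14) mark the basal keratinocytes of the epidermis and hair follicle, so both were used as a measure of skin in a tumour sample.

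Total counts per tumour ranged from 29451277 to 63923086 in the Cdh1-high and from 24036333 to 40421712 in the Cdh1-low class. In the 16 Ecad tumours the sex-linked genes matched the sex labels. Of the ΔEcad tumours, the library labelled ΔEcad male 2 went against its label, with 6.41 TPM (a transcript level scaled for gene length and depth) of Xist and none of Ddx3y, and tests that use ΔEcad tumours are given with and without it. The melanocyte gene Dct, which encodes a pigment enzyme, was at 6338 TPM or more in every Cdh1-high and at 6112 TPM or more in every Cdh1-low tumour. In the ΔEcad tumours it was at 1466 TPM or more, except in ΔEcad male 7, at 4.98 TPM.

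Cdh1 (ENSMUSG00000000303, chromosome 8, 106603351 to 106670246, GRCm38) ranged from 98.06 to 281.85 TPM with a median of 150.74 TPM in the Cdh1-high class. In the Cdh1-low class it ranged from 2.16 to 66.85 TPM with a median of 23.3 TPM. The lowest tumour inside the Cdh1-high class was Ecad male 2 at 98.06 TPM, and the highest outside it was Ecad female 8 at 66.85 TPM. The low class alone spanned levels from that of Ecad female 6, at 148 counts, to that of Ecad female 8, at 4069 counts. The classes were unequal in sex. Of the Cdh1-high tumours 6 were male and 2 female, and of the Cdh1-low tumours 2 were male and 6 female.

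The keratin level of a tumour was taken as the mean log2(TPM + 1) of Krt5 and Krt14. It ranged from 0.43 to 12.88 with a median of 10.36 in the Cdh1-high class and from 0.00 to 9.12 with a median of 0.08 in the Cdh1-low class. Ecad female 1, Ecad female 3 and Ecad male 3 of the Cdh1-high class, at 0.43, 5.49 and 7.83, lay within the range of the Cdh1-low class. Ecad female 1 had 151.15 TPM of Cdh1 with only 0.35 TPM each of Krt5 and Krt14, whereas Ecad male 8 and Ecad female 5 had keratin levels of 7.16 and 9.12 with 64.13 and 39.58 TPM of Cdh1. Over the 16 Ecad tumours Pearson's r between log2(Cdh1 TPM + 1) and keratin level was 0.71 and Spearman's rho 0.78, given as a description because the classes were cut along Cdh1. In bulk samples, fewer cells of a type and less RNA per cell cannot be told apart.

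**Figure D1:**
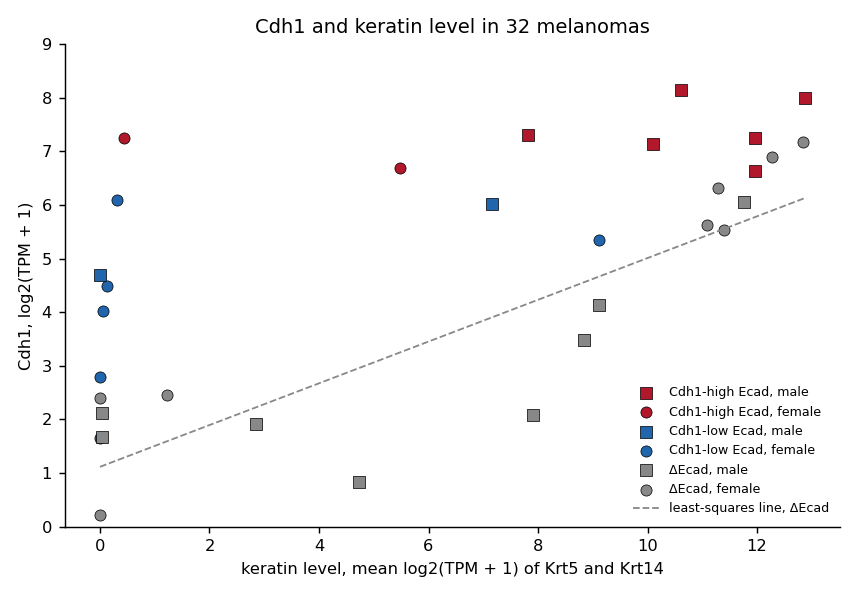
Cdh1 (log2(TPM + 1), vertical) against keratin level (mean log2(TPM + 1) of Krt5 and Krt14, horizontal) in the 32 tumours, each point 1 tumour, squares male and circles female. The dashed line is the least-squares line of the 16 ΔEcad tumours (grey), and all 16 Ecad tumours (red, Cdh1-high; blue, Cdh1-low) lie above it, by 0.54 to 5.96 on the log2 scale.

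The same relation was tested in the 16 ΔEcad tumours, where melanocytes should lack intact Cdh1. Cdh1 ranged there from 0.17 to 143.25 TPM with a median of 7.36 TPM. Its log2 level rose with the keratin level with a Pearson's r of 0.88 (two-sided permutation p = 4e-05) and a Spearman's rho of 0.86 (permutation p = 3e-05, n = 16). It was the only correlation tested across tumours. Without the 2 tumours farthest from the median keratin level r was 0.87, and without the library labelled ΔEcad male 2 it was 0.91. Within males r was 0.76 (exact permutation p = 0.0185, n = 8), or 0.83 without that library (exact permutation p = 0.0206, n = 7), and within females 0.96 (exact permutation p = 0.000595, n = 8). Spearman's rho within males was 0.73 (exact permutation p = 0.0485), or 0.72 without that library (exact permutation p = 0.0778). Within females rho was 0.92 (exact permutation p = 0.00268). Cdh1 RNA in ΔEcad tumours thus rose with keratin genes in both sexes, though by rank the male result without that library did not pass 0.05.

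At equal keratin level, Ecad tumours had more Cdh1 than ΔEcad tumours. In a linear model of log2(Cdh1 TPM + 1) on keratin level, sex and genotype over all 32 tumours, grouped by genotype label without use of the classes, the Ecad coefficient was 2.53 (SE 0.44, two-sided permutation p = 2e-05). Within males it was 3.22 (permutation p = 0.00019, n = 16) and within females 2.21 (permutation p = 0.0264, n = 16). Without the library labelled ΔEcad male 2 it was 2.42 over both sexes and 2.99 within males (permutation p = 0.00016, n = 15). Keratin-poor tumours, those with under 1 TPM of both Krt5 and Krt14, numbered 7 of 16 Ecad and 4 of 16 ΔEcad tumours. Their Cdh1 ranged from 2.16 to 151.15 TPM with a median of 21.55 TPM in Ecad, and from 0.17 to 4.27 TPM with a median of 2.755 TPM in ΔEcad. The groups overlapped through Ecad female 6 at 2.16 TPM, and Cdh1 therefore varied widely among Ecad tumours that had almost no keratin RNA. Of the 7 keratin-poor Ecad tumours, 6 belonged to the Cdh1-low class.

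Genes were then compared between the classes to see what else differed between Ecad tumours with much and with little Cdh1. A gene was called when edgeR's adjusted p was below 0.05 and its log2 fold change exceeded 1 in size. Without covariates, 349 of 16030 genes were called (2.18%). Of these, 278 were higher (1.73%) and 71 lower (0.443%) in the Cdh1-high class. The median log2 fold change of all tested genes was 0.06. The called genes that were higher included many genes of stratified and simple epithelium, and those that were lower included the melanocyte receptor Mc1r, the transcription factors Etv5 and E2f1, and red blood cell genes.

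Suprabasal keratinocyte genes had the greatest median of the lists. The list of suprabasal and cornified keratinocyte genes had 11 of 12 members above the filter on low counts, 4 of them called higher and none lower, with a median log2 fold change of 5.91. Krt10, the main keratin of suprabasal cells, was at 3.04 to 6384.73 TPM in the Cdh1-high class (median 654 TPM) and at 0.09 to 100.27 TPM in the Cdh1-low class (median 0.82 TPM). The classes overlapped, with Ecad female 1 the lowest of the Cdh1-high tumours. Its log2 fold change was 6.64 (SE 1.64, adjusted p = 0.0425). Flg2, which encodes a filaggrin of the cornified layer, was at 0 to 27.33 TPM in the Cdh1-high and 0 to 0.19 TPM in the Cdh1-low class and changed by 7.57 (SE 1.53, adjusted p = 0.0328), and Sbsn, the secreted protein suprabasin, by 4.61 (SE 0.89, adjusted p = 0.0328). Exons of Krt10 and Sbsn overlap other genes, so their values are uncertain. Of the basal keratinocyte list, 1 of 10 members was called, Itgb4, the β4 integrin of hemidesmosomes, with a log2 fold change of 3.01 and an adjusted p of 0.0423, and its exons overlap another gene. The list's median was 3.14, and Trp63, the master regulator of stratified epithelium, at 4.96 (adjusted p = 0.0587), did not pass the threshold. The filter asked for enough counts in as many tumours as a class holds, of either class, so a gene expressed in 1 class alone can pass it. List counts and medians are therefore descriptions.

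Genes of other cell junctions were called with them. Desmosome and tight junction genes had 18 of 20 members above the filter, of which 6 were called higher and none lower, with a median log2 fold change of 4.37. Ppl, periplakin, which links desmosomes to keratin filaments, was at 0.41 to 92.43 TPM (median 33.475 TPM) in the Cdh1-high and at 0.03 to 2.28 TPM (median 0.17 TPM) in the Cdh1-low class. Its log2 fold change was 6.02 (SE 1.04, adjusted p = 0.0313). Dsg1a, a desmosomal cadherin of upper epidermis, changed by 6.62 (adjusted p = 0.04) and Tjp3, a scaffold of tight junctions, by 3.35 (adjusted p = 0.0363, exons shared with Apba3).

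Epithelial regulators followed the same direction. The list of epithelial regulators and simple epithelium genes had 18 of 22 members above the filter, 6 called higher and none lower, with a median log2 fold change of 4.37. Grhl1, a grainyhead transcription factor that activates desmosomal genes, was at 0.2 to 64.19 TPM (median 25.96 TPM) in the Cdh1-high and at 0.11 to 2.56 TPM (median 0.43 TPM) in the Cdh1-low class. It changed by 4.95 (SE 0.92, adjusted p = 0.0328). Esrp1, a splicing factor of epithelial cells, changed by 5.30 (adjusted p = 0.0394) and Prss8, a membrane protease, by 5.82 (adjusted p = 0.0394), though exons of both overlap other genes. Epcam, the epithelial adhesion molecule, ranged from 0.4 to 165.53 TPM against 0 to 4.04 TPM, and its log2 fold change of 4.36 had an adjusted p of 0.0551. Hair follicle genes had only 2 of 14 members above the filter and none called.

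Further genes of smallest p in this direction included some with known roles in epidermis or in metabolism. Hal, the histidase that forms urocanic acid in the cornified layer, was at 0.48 to 60.27 TPM (median 13.425 TPM) in the Cdh1-high and at 0.06 to 1.46 TPM (median 0.17 TPM) in the Cdh1-low class, with a log2 fold change of 5.70 (SE 0.95, adjusted p = 0.0313). Bbox1, the last enzyme of carnitine synthesis, was at 0.45 to 20.75 TPM in the Cdh1-high and at 0 to 0.44 TPM in the Cdh1-low class, and the classes did not overlap. Its log2 fold change was 5.77 (SE 1.05, adjusted p = 0.0328). Over all genes tested, 17 did not overlap between the classes in this direction (0.106%) and 10 in the other (0.0624%). Of these, 8 and 6 were also called. Xkrx, Nudt17, Tmem184a, Epha1, Rnf225 and Dnase1l2, with log2 fold changes of 2.35 to 5.02, and Tspyl2, at 1.00, had adjusted p of 0.0313 to 0.0328. Exons of Nudt17, Tmem184a, Epha1 and Rnf225 overlap other genes.

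**Figure D2:**
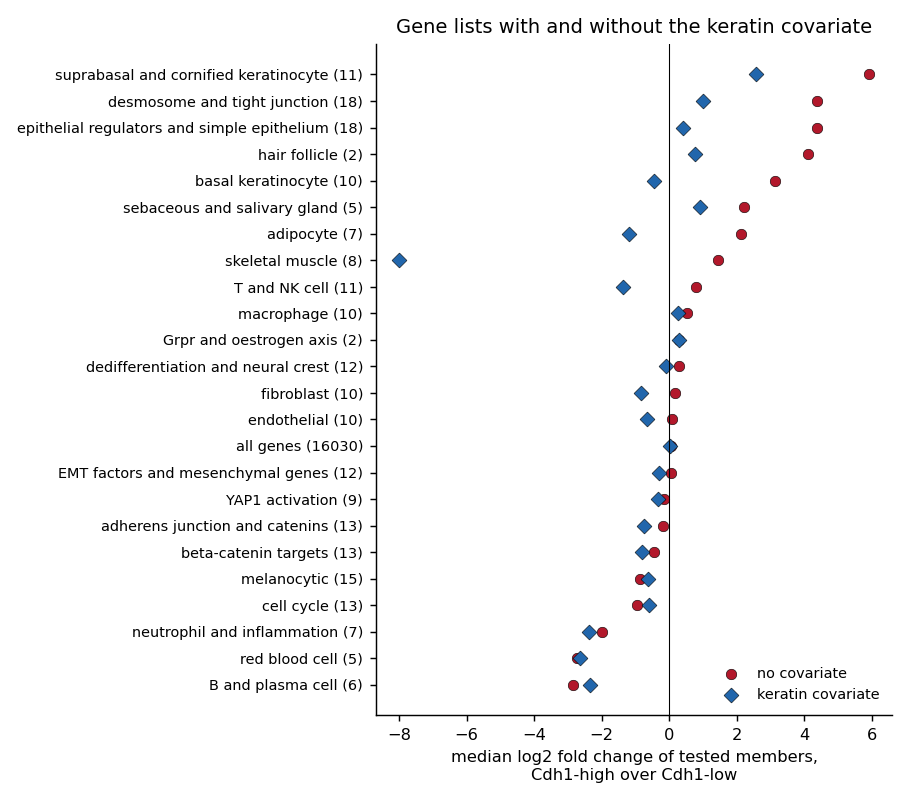
Median log2 fold change of the tested members of each gene list, Cdh1-high over Cdh1-low, without covariate (red circles) and with the keratin level as covariate (blue diamonds), with the number of members tested without covariate in brackets. The suprabasal list moves from 5.91 to 2.55 and the basal list from 3.14 to -0.46 with the covariate, while the red blood cell list stays near -2.7. The skeletal muscle list moves furthest, from 1.44 to -7.99.

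Most of these calls were lost when any 1 of several tumours was left out. Over the named genes, 318 leave-out results lost the call, 30 gained it and 0 called results turned in direction. Leave-out log2 fold changes were 5.98 to 8.72 for Krt10, 5.66 to 6.85 for Ppl and -1.93 to -1.71 for Etv5. The 348 called genes other than Ctnnal1 had adjusted p from 0.0313 to 0.0496, close to the threshold. Without Ecad male 1, 2, 4, 5 or 6 or Ecad female 4 or 6, 1 gene was called in each case, and without Ecad male 7, 2 genes. Without Ecad male 8, Ecad female 8 or Ecad female 2 there were 94, 72 and 215, and without Ecad male 3, Ecad female 1, Ecad female 3 or Ecad female 5 there were 614, 770, 568 and 591. Other tools called more, 1148 genes with DESeq2 and 2050 with limma voom. Unadjusted p lay below 0.05 for 3445 genes. Replicates were separate tumours by their labels, and p-values measure the spread between these tumours.

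**Figure D3:**
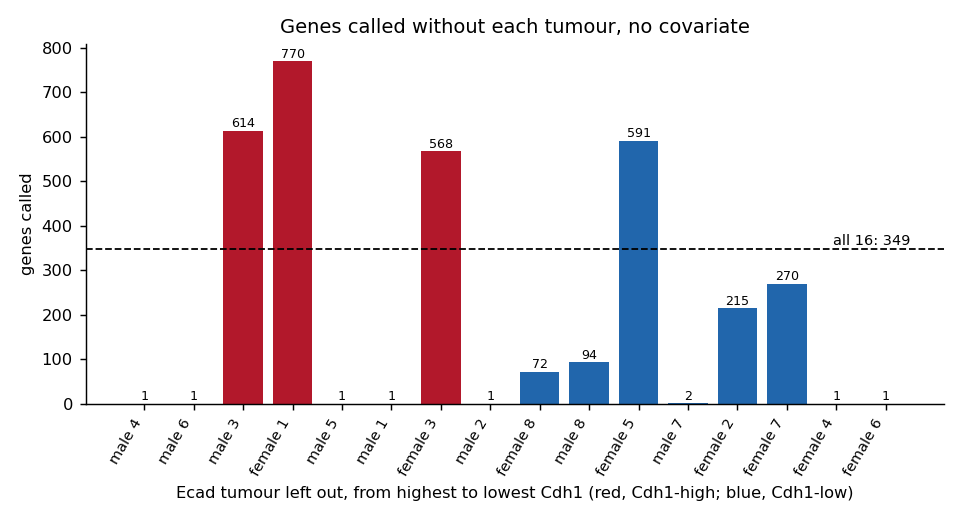
Number of genes called without covariate when the tumour named on the horizontal axis is left out, tumours ordered from highest to lowest Cdh1 (red, Cdh1-high; blue, Cdh1-low). The dashed line marks the 349 genes called with all 16 tumours, and the bars range from 1 to 770.

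Ecad female 1 stood apart from the rest of its class. For each of the 278 genes called higher, its TPM was set against the range of the 8 Cdh1-low tumours. In Ecad female 1, 69 of the 278 genes lay above that range, 198 within it and 11 below it. Of all 16030 genes tested, 4010 lay above that range in Ecad female 1, 10400 within it and 1620 below it. In the other 7 Cdh1-high tumours 140 to 277 of the 278 lay above it, with 140 in Ecad male 3 and 152 in Ecad female 3. Of all genes tested, 1925 to 3896 lay above it in these 7. Of the 71 genes called lower, 33 lay below the Cdh1-low range in Ecad female 1, and 24 to 55 did so in the other 7. Of all genes tested, 1620 lay below it in Ecad female 1 and 743 to 4562 in the other 7. The genes had been called with these tumours in the fit, so these counts are a description. Ecad female 1 also had the deepest library, at 63923086 counts, the lowest slope of expression on GC content of the 16 (-0.68), and 0.18 as the mean log2(TPM + 1) of the epithelial regulator list, against 1.19 to 4.38 in the other Cdh1-high tumours. The part of depth in this was not tested.

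Ctnnal1 gave the smallest p of all genes tested. It encodes α-catulin, a relative of α-catenin (chromosome 4, 56810935 to 56865188). Ctnnal1 was at 7.13 to 18.42 TPM (median 11.04 TPM) in the Cdh1-high class and at 0.91 to 2.93 TPM (median 1.56 TPM) in the Cdh1-low class. The classes did not overlap, and Ecad female 1, with almost no keratin RNA, had 9.54 TPM. In the other 6 keratin-poor Ecad tumours Ctnnal1 was between 0.91 and 1.78 TPM. Its log2 fold change was 2.82 (SE 0.28, adjusted p = 0.000175). It was called whichever of the 16 tumours was left out. When each sex was split on its own into the 4 highest and the 4 lowest by Cdh1, so that some tumours changed class, it was 0.58 in males and 2.20 in females (adjusted p = 0.927 and 0.941, the alternatives spanning 1.1e-21 to 0.941).

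**Figure D4:**
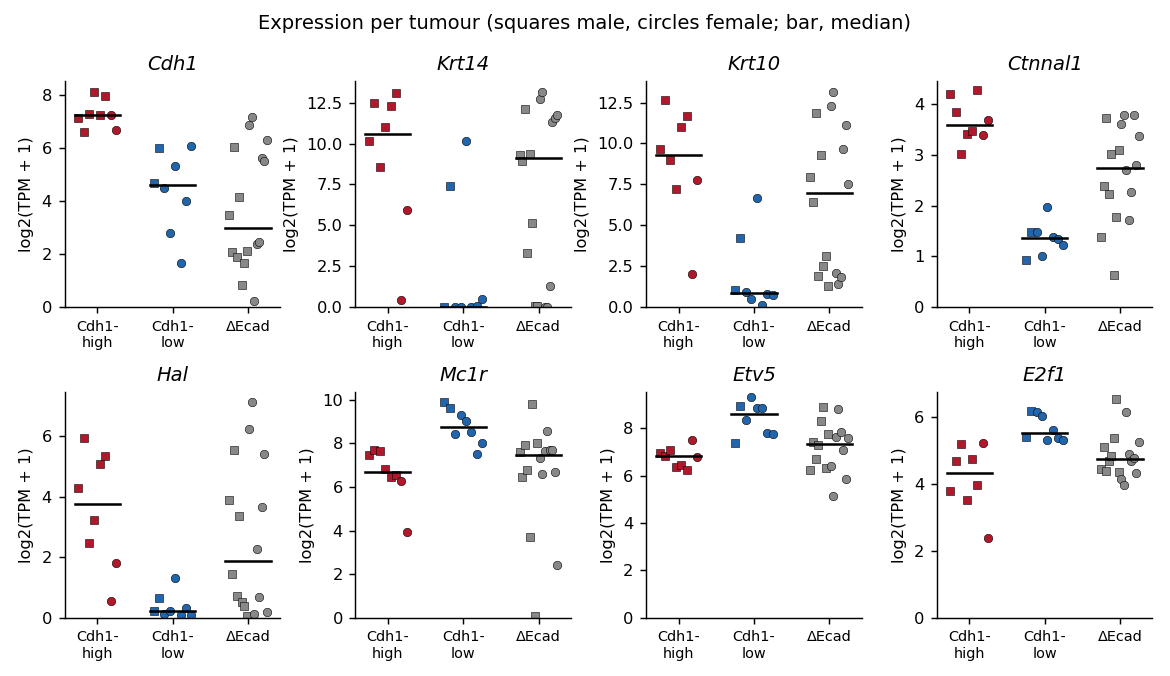
Log2(TPM + 1) of 8 genes in each tumour of the Cdh1-high, Cdh1-low and ΔEcad groups (squares male, circles female, bars medians, vertical axes from 0). Cdh1, which ranked the tumours, Ctnnal1 and E2f1 do not overlap between the classes, whereas Krt14, Krt10, Hal, Mc1r and Etv5 do.

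Among the partners of E-cadherin at adherens junctions few genes were called. Of the 13 members of the adherens junction and catenin list, all above the filter, 1 was called higher and none lower, with a median log2 fold change of -0.19. The called gene was Nectin4, an adhesion molecule of epithelia, at 0.69 to 43.82 TPM in the Cdh1-high and 0.08 to 4.67 TPM in the Cdh1-low class (log2 fold change 3.68, SE 0.91, adjusted p = 0.0425). Nectin1, of the same family, was at 0.51 to 51.47 TPM against 1.58 to 5.73 TPM, and its log2 fold change of 2.50 (SE 0.69, adjusted p = 0.0565) did not pass the threshold. β-catenin (Ctnnb1) was at 323 to 1277 TPM (median 519 TPM) in the Cdh1-high and at 512 to 1048 TPM (median 834 TPM) in the Cdh1-low class, which overlapped, with a log2 fold change of -0.47 (SE 0.28, adjusted p = 0.337). p120 catenin (Ctnnd1) differed by -0.12 (adjusted p = 0.851) and plakoglobin (Jup), shared with desmosomes, by 1.08 (adjusted p = 0.379). Exons of Ctnnb1 and Ctnnd1 overlap other genes. N-cadherin (Cdh2), often described as the reverse of E-cadherin, was at 2.43 to 12.75 TPM against 5.78 to 33.36 TPM, a log2 fold change of -1.04 (SE 0.44, adjusted p = 0.187). P-cadherin (Cdh3), the neighbour of Cdh1 on chromosome 8 and a cadherin of basal keratinocytes, differed by 2.64 (adjusted p = 0.181).

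The transcription factors that repress Cdh1 in epithelial to mesenchymal transition (EMT) did not pass the test. Log2 fold changes were -0.40 for Snai1 (SE 0.61, adjusted p = 0.735), 0.59 for Snai2 (SE 0.55, adjusted p = 0.559) and 0.07 for Zeb1 (SE 0.28, adjusted p = 0.908). For Zeb2 the value was 0.01 (SE 0.38, adjusted p = 0.993) and for Twist1 0.51 (SE 0.87, adjusted p = 0.766). No member of the list of 12 EMT factors and mesenchymal genes was called in either direction, and its median was 0.04.

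Melanocyte genes lay lower in the Cdh1-high class on average. The mean log2(TPM + 1) of the melanocytic list was 7.37 to 8.70 (median 7.74) in the Cdh1-high and 8.06 to 9.61 (median 9.16) in the Cdh1-low class. The 15 tested members had a median log2 fold change of -0.88, with 1 called lower and none higher. That gene was Mc1r, the melanocortin receptor that drives eumelanin synthesis (chromosome 8, 123407107 to 123410744). It was at 14.5 to 206.21 TPM (median 103 TPM) in the Cdh1-high and at 181.07 to 937.6 TPM (median 442 TPM) in the Cdh1-low class, where Ecad female 7 alone lay within the range of the other class. Its log2 fold change was -2.23 (SE 0.43, adjusted p = 0.0328), and its exons overlap Gm38092. Pmel, which forms the fibrils of melanosomes, was at 141 to 5294 TPM against 794 to 16560 TPM, with a log2 fold change of -2.32 (SE 0.67, adjusted p = 0.0651), and shares exons with Cdk2 and Dgka. Mitf, the master regulator of melanocytes, differed by -0.88 (SE 0.55, adjusted p = 0.363) and Dct by -0.49 (SE 0.49, adjusted p = 0.585).

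Genes of growth signalling and of the cell cycle were among those called lower. Etv5, an ETS factor induced by ERK signalling, was at 74.33 to 179.23 TPM (median 111 TPM) in the Cdh1-high and at 164.56 to 642.66 TPM (median 392 TPM) in the Cdh1-low class. Its log2 fold change was -1.82 (SE 0.29, adjusted p = 0.0313). E2f1, which drives entry into S phase, did not overlap between the classes, at 4.25 to 35.95 TPM against 38.12 to 70.59 TPM (log2 fold change -1.48, SE 0.32, adjusted p = 0.0363). It was the only 1 of 13 cell cycle genes that was called, and the list's median was -0.95. Plk1, a mitotic kinase, was at 3.95 to 58.36 TPM against 38.88 to 98.45 TPM (adjusted p = 0.0738). Mean log2(TPM + 1) of the list was 2.97 to 5.63 against 4.39 to 5.75.

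The other genes of smallest p that were lower had a range of functions. Rgs3, which ends G-protein signals, was at 1.3 to 4.68 TPM in the Cdh1-high and 5.43 to 32.42 TPM in the Cdh1-low class, without overlap, and changed by -2.01 (SE 0.37, adjusted p = 0.0328). Man1c1, a Golgi mannosidase, Rnf157, a ubiquitin ligase, and Cdkn2aipnl also did not overlap, with log2 fold changes of -1.19, -1.28 and -1.24. Natd1, Plekho2, Ldlrad3, Nkain1, Mgat5 and Bace1 changed by -1.26 to -2.74. Exons of Bace1 and Mgat5 overlap other genes. Of the β-catenin target list, 1 of 13 tested members was called lower, Tcf7, itself a partner of β-catenin, at 10.35 to 73.82 TPM against 21.59 to 271.02 TPM (log2 fold change -2.01, SE 0.47, adjusted p = 0.0405). The cyclin gene Ccnd1 differed by -1.46 (adjusted p = 0.0918).

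Among the markers of blood, immune cells, stroma, muscle and fat, only red blood cell genes were called. Of 5 red blood cell genes 2 were called lower, Alas2, the haem synthesis enzyme of erythroid cells (log2 fold change -3.10, adjusted p = 0.0425, exons shared with Apex2), and Hbb-bs, a β-globin (-2.74, adjusted p = 0.0453). Mean log2(TPM + 1) of the list was 3.34 to 7.46 against 4.23 to 10.43. Globin genes are near-identical copies, so reads may be split between them. No macrophage, T and NK cell, B and plasma cell, neutrophil, fibroblast, endothelial, skeletal muscle or adipocyte gene was called. Medians of these lists lay between -2.86 for B and plasma cells and 2.12 for adipocytes. Skeletal muscle scores were 0.39 to 10.60 against 0.46 to 8.73, so tumours of both classes held from almost no to much muscle RNA. Nor was any gene of the dedifferentiation, YAP1, sebaceous and salivary gland or Grpr and oestrogen lists, whose medians were 0.28, -0.17, 2.22 and 0.29. Grpr, the gastrin-releasing peptide receptor, was at 0 to 0.17 TPM in the Cdh1-high and 0 to 0.34 TPM in the Cdh1-low class and did not pass the filter. Esr1, the oestrogen receptor α, was at 0.23 to 3.13 against 0.63 to 3.83 TPM (adjusted p = 0.845). The part of blood, muscle or other tissue content in the differences between the classes was not tested.

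With the keratin level as covariate, 1 of 16028 genes was called (0.00624%), Ctnnal1, with a log2 fold change of 2.42 (adjusted p = 0.00612). Unadjusted p lay below 0.05 for 2977 genes, and DESeq2 called 956 and limma voom 20. Without Ecad male 3, which combined high Cdh1 with a keratin level of 7.83, 290 genes were called. Without Ecad female 1 none was called by edgeR (2067 at an unadjusted p under 0.05), without Ecad female 2 there were 4 and without Ecad female 7 there were 13. The median log2 fold change fell from 5.91 to 2.55 for suprabasal keratinocyte genes, from 4.37 to 1.01 for desmosome and tight junction genes and from 4.37 to 0.39 for epithelial regulators. It was -0.46 for basal keratinocyte genes, to which Krt5 and Krt14 are closest. Lists of other tissues moved too, without any gene called. Their medians went from 1.44 to -7.99 for skeletal muscle, from 2.12 to -1.18 for adipocyte and from 0.78 to -1.38 for T and NK cell genes. Krt10 was at 3.38 (adjusted p = 0.0758), Ppl at 2.99 (adjusted p = 0.075) and Grhl1 at 1.65 (adjusted p = 0.269). Mc1r was at -2.76 (adjusted p = 0.075) and Etv5 at -1.69 (adjusted p = 0.075), and none of these genes passed the threshold. The estimates of Mc1r and Etv5 moved less than those of Krt10, Ppl and Grhl1, but were also smaller in size without covariate. Medians moved from -0.95 to -0.60 for the cell cycle list and from -0.88 to -0.62 for the melanocytic list. The difference between these estimates was not tested.

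With sex as covariate, 91 of 16030 genes were called (0.568%), 63 higher (0.393%) and 28 lower (0.175%). DESeq2 called 1071 and limma voom 900. Of the 91, 47 were among the 349 called without covariate, which is 51.6% of the one and 13.5% of the other. The gene of smallest p was Ctnnal1 (log2 fold change 2.87, adjusted p = 0.00141), followed by Mc1r (-2.98, adjusted p = 0.00199). Tbc1d23, a protein of vesicle tethering, was at 38.31 to 61.87 TPM in the Cdh1-high and 14.11 to 37.3 TPM in the Cdh1-low class, without overlap (log2 fold change 1.20, adjusted p = 0.00886, exons shared with Gm16892). Etv5, Natd1, Man1c1, Rgs3, Nkain1, Mbip, Snrnp48, Trp53inp1 and Zup1 each had an adjusted p of 0.0343. No member of the keratinocyte, junction or epithelial lists was called, and their medians were 4.18 for suprabasal, 2.77 for desmosome and tight junction and 2.90 for epithelial regulator genes. Without single tumours the count ranged from 2, without Ecad male 8, to 349, without Ecad female 5. It was 3 to 5 without Ecad male 1, 2, 5 or 6 or Ecad female 3, 4 or 6, 31 and 40 without Ecad female 8 and Ecad male 4, and 139, 211 and 235 without Ecad female 2, Ecad male 3 and Ecad female 1.

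With both covariates, 2 of 16028 genes were called (0.0125%), Ctnnal1 higher (log2 fold change 2.42, adjusted p = 0.00417) and Mc1r lower (-2.93, adjusted p = 0.021). Unadjusted p lay below 0.05 for 2906 genes, and DESeq2 called 1108 and limma voom 63. Within males, Mc1r was at 86.39 to 206.21 TPM in 6 Cdh1-high and at 791.13 and 937.6 TPM in 2 Cdh1-low tumours. Within females it was at 14.5 and 75.97 TPM in 2 Cdh1-high and at 181.07 to 629.42 TPM in 6 Cdh1-low tumours, so the classes did not overlap in either sex. Without Ecad male 3 there were 184 called genes, and without Ecad female 1 or Ecad female 5 none (2203 and 2005 at an unadjusted p under 0.05). Without Ecad male 4 or Ecad male 7 there was 1, and without Ecad male 8, Ecad female 2 and Ecad female 7 there were 5, 7 and 10.

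Transcript GC content moved with the estimates. Over the third of genes with the lowest GC content the median log2 fold change was 0.17 without covariate and 0.40 with the keratin covariate, and over the third with the highest GC content it was -0.05 and -0.27. With the slope of expression on GC content of each tumour as a further covariate, chosen after the data were seen, 777 genes were called in the fit without keratin and none by edgeR in the fit with it (1173 at an unadjusted p under 0.05).

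The genes called in the Ecad tumours were then followed in the 16 ΔEcad tumours, whose Cdh1 had no part in the ranking. The slope of each gene on log2(Cdh1 TPM + 1) was fitted there and called when its adjusted p was below 0.05. Of 17381 genes 1091 were called (6.28%), 984 rising and 107 falling with Cdh1, and 1033 without the library labelled ΔEcad male 2. Of the 278 genes higher in the Cdh1-high class, 277 were tested, 266 had a positive slope and 184 were called as rising. Of the 71 lower genes, 69 had a negative slope and 10 were called as falling. Over all genes tested 7490 of 17381 slopes were positive. Without the library labelled ΔEcad male 2, 267 of the 277 higher genes had a positive slope and 177 were called as rising, 69 of 70 lower genes tested had a negative slope and 9 were called as falling. Hal rose by 1.28 for each unit of log2 Cdh1 (adjusted p = 0.00271), Grhl1 by 1.26 (adjusted p = 4.93e-05) and Krt10 by 1.68 (adjusted p = 0.00056). Without that library the slopes were 1.30 for Hal, 1.32 for Grhl1 and 1.82 for Krt10, with adjusted p of 0.005, 5.48e-05 and 0.000345. With the keratin level as covariate none was called by edgeR (1477 of 17867 at an unadjusted p under 0.05, smallest adjusted p = 0.255), nor was any without that library (968 of 18315, smallest adjusted p = 0.87).

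**Figure D5:**
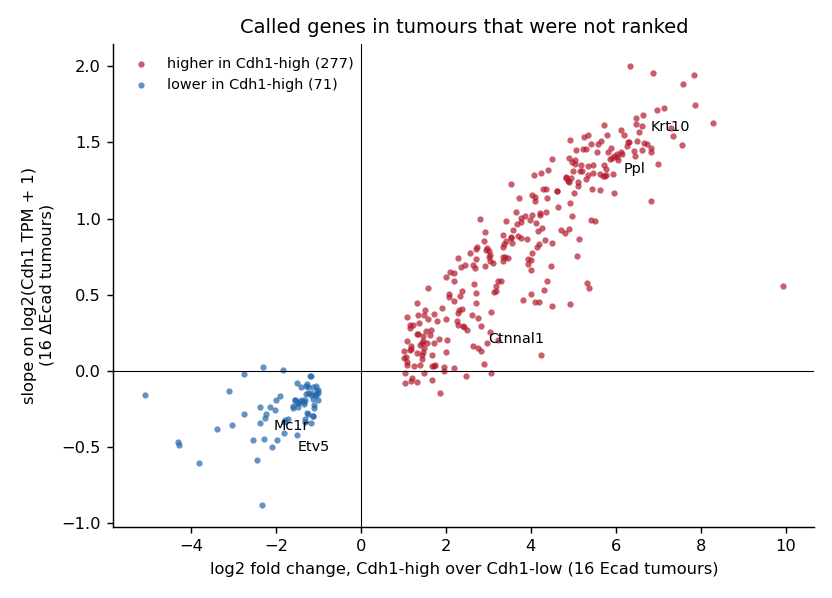
Slope on log2(Cdh1 TPM + 1) in the 16 ΔEcad tumours (vertical, log2 per unit) against log2 fold change between the classes in the 16 Ecad tumours (horizontal) for the called genes tested in both, 277 higher (red) and 71 lower (blue). Of the higher genes 266 have a positive slope and of the lower genes 69 a negative one.

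Ctnnal1 and Mc1r, the genes called with both covariates, did not pass the test in ΔEcad tumours. Ctnnal1 was at 0.54 to 12.93 TPM there and had a slope of 0.29 (SE 0.09, adjusted p = 0.0694). Mc1r had a slope of -0.28 (adjusted p = 0.525) and Etv5 of -0.34 (adjusted p = 0.0547). E2f1 fell by 0.24 per unit (adjusted p = 0.0118). Without the library labelled ΔEcad male 2 the slopes were 0.30 for Ctnnal1 (adjusted p = 0.0832), -0.30 for Mc1r (0.53), -0.34 for Etv5 (0.0648) and -0.24 for E2f1 (0.0166). ΔEcad male 7, with 2.17 TPM of Cdh1, had almost no melanocyte RNA. It had 2 counts of Mc1r and a melanocytic list mean of 1.22, against 5.92 to 9.22 in the other ΔEcad tumours. The slopes were not fitted without ΔEcad male 7. In keratin-rich ΔEcad tumours such as ΔEcad female 2, with 143.25 TPM of Cdh1, Ctnnal1 was at 12.79 TPM. In ΔEcad male 8 it was at 7.57 TPM, although that tumour had 3.34 TPM of Cdh1 and under 1 TPM of both keratins.

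The genes whose log2 levels were most like that of Cdh1 over the 16 Ecad tumours are given as a description. They were Tmem50b, a membrane protein (r = 0.91), Hhatl (0.88), Pdzd2 (0.87), Casq2, a calcium store protein of heart muscle (0.87), Sec22a, of vesicle transport (0.87), Adgrg6, an adhesion receptor (0.85), Cryab, a small heat shock protein (0.85), and Rnf128, a ubiquitin ligase (0.84). None of these belongs to the keratinocyte or junction lists. Hhatl was at 8.51 to 152.97 TPM in the Cdh1-high class and 0.73 to 8.62 TPM in the Cdh1-low class, and Ecad female 1 was the highest of all. Tmem50b was at 41.65 to 58.77 TPM against 20.25 to 46.42 TPM. Kif3c, a kinesin, was also called lower (log2 fold change -1.48, adjusted p = 0.0363). The lowest values of r were -0.88 for Ganab, -0.87 for Kif3c, -0.85 for Foxp2 and -0.85 for Slc6a15. Exons of Adgrg6, Cryab and Kif3c overlap other genes.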

How the data were processed

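RNA of 32 primary mouse melanomas was sequenced with a stranded messenger RNA kit. Per the labels and methods, the authors checked reads with FastQC (0.11.5), aligned them with STAR to GRCm38.p5 and counted them per gene on GENCODE, and whether counting used strand is not given in the sources used here. The deposited counts were used for all tests, and the deposited TPM values, scaled by the authors for gene length and depth, for levels, lists and the ranking. The 8 highest and 8 lowest Ecad tumours by Cdh1 TPM were compared with edgeR's quasi-likelihood test (4.0.16, R 4.3.3, TMM scaling, filterByExpr, robust), with Benjamini-Hochberg adjustment and thresholds of 0.05 and 1 in log2 fold change. Further fits added keratin level, sex or both. The ranking gene was left out of every count of genes, and Krt5 and Krt14 where they were the covariate. The Benjamini-Hochberg adjustment ran over all genes above the filter with these genes still included. This can make the adjusted p of other genes smaller, and its effect was not tested. Alternatives used DESeq2 (1.42.0) and limma voom (3.58.1). Relations of Cdh1 with keratin were tested with two-sided permutation tests of 100000 resamples (scipy 1.17.1), for which 1e-05 is the smallest p they can give. Levels were taken as log2(TPM + 1). The 4 fits were also run on data simulated with a class effect alone, without an effect of keratin or sex. They called 43% to 63% of genes changed by 2 in log2 and 82% to 88% of those changed by 4. Of the unchanged genes 3 to 5 were called. The covariate fits were thus not tried on data that hold a covariate effect.

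Genes were named by a rule: those of smallest adjusted p in each direction of each fit, list members that were called or had the smallest p in their list, a set of cadherin, catenin, EMT and melanocyte genes, and the highest and lowest correlations with Cdh1. The members, gene lists and tests were chosen with earlier results of these data known. Samples were grouped by their labels, and replicate numbers were taken as names only.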

Additional observations from a re-analysis of the deposited data

Results flagged for a closer look

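Of 106 sets of values within the Cdh1-high or Cdh1-low class, 7 held 1 tumour far from the other 7, by the size of its gap to the nearest of them, and chance alone gives about 1 in 20. All values are log2(TPM + 1) or means of it. In the Cdh1-high class, Ecad male 6 was highest in hair follicle score at 4.21, with the nearest tumour at 1.88, and Ecad female 3 was highest in sebaceous and salivary gland score at 5.32, with the nearest at 2.02. Ecad female 3 was also lowest in Mc1r at 3.95, with the nearest at 6.27. In the Cdh1-low class, Ecad male 8 was highest in hair follicle score at 1.36, with the nearest at 0.06, and in Bbox1 at 0.53, with the nearest at 0.16. Ecad female 7 was lowest in Nkain1 at 3.07, with the nearest at 4.94, and Ecad female 5 was highest in Rnf225 at 1.39, with the nearest at 0.72.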

How the results depend on the processing

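The count of 349 genes without covariate became 1148 with DESeq2, 2050 with limma voom, 692 with Cdh1 as a continuous measure, 777 with the GC slope as covariate (chosen after the data were seen), 1 with the 6 highest against the 6 lowest tumours, and 0 within males and within females (1091 and 795 genes at an unadjusted p under 0.05). The 1 gene with the keratin covariate became 956 with DESeq2, 20 with limma voom, 39 without a filter on low counts, 2 with Cdh1 as a continuous measure, 2 with keratinocyte lists as covariate, and 0 with 6 against 6, with the GC slope, with a melanocytic score added, within males and within females (1443, 1173, 801, 864 and 928 at an unadjusted p under 0.05). The 91 genes with the sex covariate became 1071 with DESeq2, 900 with limma voom, 35 with continuous Cdh1, 278 with the GC slope and 0 with 6 against 6 (1399). The 2 genes with both covariates became 1108 with DESeq2, 63 with limma voom, 16 without the filter, 12 with continuous Cdh1, 1 with Krt5 and Krt14 apart, and 0 with 6 against 6, the GC slope and the melanocytic score (1585, 1386 and 1294). With continuous Cdh1 the threshold of 1 applied to the slope per unit of log2(Cdh1 TPM + 1), not to a difference between classes. Those counts are therefore at an unlike threshold. Without single tumours the counts ranged from 1 to 770, 0 to 290, 2 to 349 and 0 to 184. The 1091 slopes called in ΔEcad tumours became 1771 with DESeq2 and 0 with the keratin covariate, also without the library labelled ΔEcad male 2 (1477 and 968 at an unadjusted p under 0.05). The fits without that library within males or with the keratin covariate were chosen after the data were seen. Other size factors, ranking by CPM and a fit that was not robust left each count within 1.5 times. The causes were not tested, except that the 6 against 6 and within-sex fits hold fewer tumours.

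With the replicate number as a replicate block, 0 genes were called in each of the 4 fits (2205, 369, 1117 and 530 at an unadjusted p under 0.05). Male and female tumours of the same number deviated together with r between -0.28 and 0.43 over 8 numbers. Whether the numbers pair the tumours was not tested, and these values cannot decide it.

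Split within males, Flg2 and Krt10 turned to -0.0704 (adjusted p = 0.995) and -0.0599 (adjusted p = 0.996). Over the named genes without covariate, 1191 results outside the leave-out fits kept direction and side of the threshold, 171 lost the call, 72 gained it and 2 turned. Ctnnal1 lost its call in 4 of 31 fits without covariate, 8 of 34 with the keratin covariate, 3 of 29 with the sex covariate and 7 of 32 with both. Each of these totals includes the main fit.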
